A study of Homo sapiens with 12 samples.

Results

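Oxamate-exposed parental MIAPaCa2 cells were compared with oxamate-resistant MIAPaCa2 cells kept without drug, across the 14582 genes that passed a filter on low counts, of 26475 gene symbols in the count table. These 2 groups hold 6 of the 12 RNA-seq libraries of the study, 3 in each group. The comparison asks how the state of cells meeting the drug differs from the state of cells that have adapted to it, and which of the changes seen on exposure are also present in adapted cells when no drug is given. MIAPaCa2 is an established line of pancreatic ductal adenocarcinoma (PDAC), and all libraries come from it. The resistant cells were derived by keeping MIAPaCa2 cells in 10 mM sodium oxamate for 4 weeks, and they are populations of survivors rather than single clones. The untreated parental cells, 3 libraries, served as the common reference for both states, and the resistant cells given oxamate again, 3 libraries, are shown for their levels. The sources used here give neither the dose and length of the oxamate exposure before RNA was taken nor the time that the untreated resistant cells had spent out of drug. Here "acute" therefore means oxamate given to parental cells, and "adapted" means resistant cells without it.

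Lactate dehydrogenase A (LDHA) turns the pyruvate made by glycolysis into lactate and so regenerates the NAD+ on which glycolysis runs. Oxamate resembles pyruvate and competes with it for the enzyme. Glycolytic genes, LDHA among them, are classical targets of the hypoxia-inducible factors (HIF), heat shock genes are driven by the factor HSF1, and a shortage of amino acids acts through the integrated stress response and its factor ATF4.

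Library totals of the expected counts were 59811522 to 76423863 in oxamate-exposed parental cells and 52774422 to 55239600 in untreated resistant cells, within a range of 46698729 to 114222169 over all libraries. Levels are given as CPM, counts scaled to a common library total with TMM factors, and a floor of 3 counts corresponded to 0.0283 to 0.0581 CPM, which covers counting error only. The keratins KRT8 and KRT18 and vimentin were read in all 12 libraries, CDH1 (E-cadherin) reached at most 2 counts in a library, and 14 of 20 markers of blood, endothelial, fibroblast, acinar and endocrine cells had at most 3 counts in each of the 6 libraries compared, with CD3E, PRSS1, PNLIP, INS, GCG and SST at 0 in all of them. The 20 markers summed to 217 to 226 CPM in the acute and 63.1 to 66.6 CPM in the adapted libraries, nearly all of it CD68, a lysosomal protein used as a macrophage marker, with 220.2, 214 and 211 CPM in the acute and 60.1, 63 and 59.3 CPM in the adapted libraries. The part of other cell types in the results was not tested. In these bulk libraries a change in every cell and a change in the share of cells with a high level cannot be told apart. A set of 4 long noncoding RNAs that stay in the nucleus (MALAT1, NEAT1, KCNQ1OT1 and MIAT) summed to 544 to 1186 CPM in the acute and 533 to 1112 CPM in the adapted libraries, against 321 to 357 CPM in untreated parental cells. The highest sums belonged to replicate 3 of the acute and replicate 3 of the adapted group, with 596 and 597 CPM of MALAT1 against 244 to 289 CPM in the other libraries of those groups. The part of these libraries in the results was not tested, and the main counts are also given without both replicates 3. No source says that the replicates were separate cultures, so that p-values measure the spread between these libraries, which may be technical.

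LDHA mRNA, the product of the gene whose protein oxamate inhibits, was lower in the adapted than in the acute state. It stood at 1701, 1694 and 1546 CPM in the acute libraries and at 966, 969.9 and 944 CPM in the adapted libraries. Untreated parental cells had 1075, 1059 and 1086 CPM, so that the acute libraries lay above and the adapted libraries below all parental ones. The adapted difference from parental cells was small, at -0.16 ± 0.03 (log2, SE). With library size alone the median of that comparison moved up by 0.22, so that the direction of this small difference depends on the scaling. The adapted minus acute log2 fold change was -0.78 ± 0.03 (SE; edgeR quasi-likelihood test with Benjamini-Hochberg adjustment, adjusted p = 1.74e-12). LDHB, the other common subunit of the enzyme, reached at most 1 count in any library.

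Between the acute and the adapted state, 4481 genes (30.7% of those tested) were called differentially expressed, by the study's threshold of an unadjusted p below 0.05 with more than a 1.5-fold change. Of these, 2909 (19.9%) were higher and 1572 (10.8%) were lower in adapted cells, and 4450 passed after Benjamini-Hochberg adjustment. The higher genes were mostly of low expression, with 1753 under a mean of 8 CPM over the 12 libraries and 1156 at or above it, while the lower ones split into 564 and 1008. A difference over 4-fold was seen for 411 of the higher and 50 of the lower genes. The acute comparison with untreated parental cells gave 1440 genes (9.88%), and the adapted comparison with the same cells gave 3407 (23.4%). The median absolute log2 difference between group means was 0.191 for the acute, 0.309 for the adapted and 0.380 for the direct comparison, so that the states lay further from each other than either lay from untreated parental cells. Without both replicates 3 the adapted minus acute contrast called 4494 genes, and these held 4194 of the 4481 (93.6%) with the direction kept. When libraries were scaled by size only, without TMM, the median of all genes moved up by 0.29 on the log2 scale and the split became 4604 higher and 630 lower, or 88.0% higher in place of 64.9%.

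**Figure D1:**
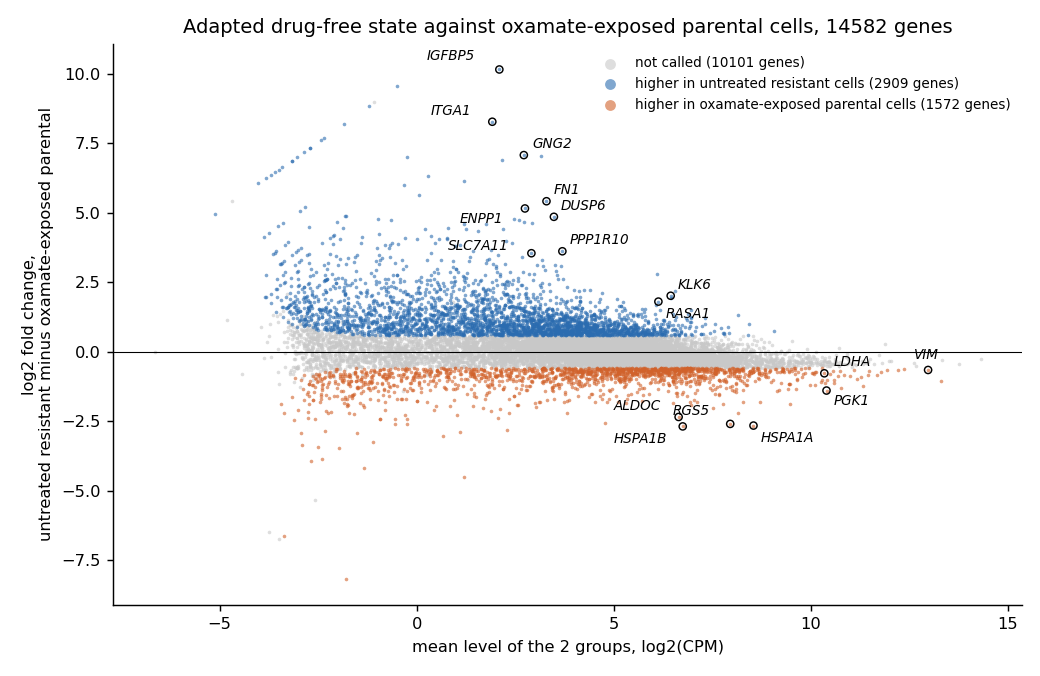
Each point is a gene, placed by its mean level in the oxamate-exposed parental and untreated resistant libraries (x, log2 of CPM, with levels under 0.01 CPM drawn at 0.01) and by its log2 fold change between them (y, positive where untreated resistant cells are higher). The 2909 higher genes reach further from 0 and to lower levels than the 1572 lower genes, and circles mark genes described in the text.

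The genes with the smallest p among those higher in adapted cells were RASA1, LOC101929380, ENPP1, KLK6, TPD52L1 and GNE, and in each of them the 3 acute and 3 adapted libraries did not overlap, as the rule that chose them asks and as was the case for 78.6% of all tested genes. RASA1, a GTPase-activating protein that switches RAS off, had 31.1, 31.2 and 32.1 CPM in the acute and 109, 109 and 110.4 CPM in the adapted libraries. The adapted libraries stood well above the acute ones with little spread in either group, a log2 difference of 1.8 ± 0.03 (SE). ENPP1, an ectoenzyme that hydrolyses extracellular nucleotides, went from 0.34, 0.362 and 0.391 CPM in the acute to 12.8, 12.7 and 13.8 CPM in the adapted libraries, a log2 difference of 5.15 ± 0.12. KLK6, a secreted serine protease of the kallikrein family, went from 34.7, 36.2 and 33.5 CPM to 142, 143 and 135 CPM. Resistant cells given oxamate again also had high levels of both, at 15, 14.6 and 14.4 CPM of ENPP1 and 141, 142 and 142 CPM of KLK6. TPD52L1 (log2 difference 3.11 ± 0.06), GNE, an enzyme of sialic acid synthesis (1.49 ± 0.03), and the uncharacterized LOC101929380 (7.02 ± 0.22) complete the set.

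Where the higher group averaged 8 CPM or more, the largest differences toward adapted cells belonged to IGFBP5, GNG2, LOC101929380 and TGFBR2, which were close to silent in parental cells given oxamate. IGFBP5, which binds insulin-like growth factors, had 0, 0 and 0.0145 CPM in the acute libraries, none of them above the floor, and 7.97, 9.52 and 8.25 CPM in the adapted libraries, at least 167-fold higher when set against the mean floor of 3 counts per library. GNG2, a G protein gamma subunit, went from 0.107, 0.0952 and 0.0869 CPM to 13, 12.8 and 13.5 CPM. TGFBR2, the type II receptor for TGF-beta, went from 0.143, 0.019 and 0.058 CPM to 9.25, 8.45 and 9.11 CPM. In both genes every adapted library lay far above every acute one. In all, 82 genes stood at or under 3 counts in every acute library and above it in every adapted library, 37 of them also at or under 3 counts in every untreated parental library, and the highest of the 82 was IGFBP5 with a mean of 8.58 ± 0.826 CPM (SD, n = 3). The reverse was seen for 6 genes, none with a mean over 0.353 CPM. For the count of 37, the floor was 0.0283 to 0.0482 CPM in untreated parental and 0.0435 to 0.0571 CPM in acute libraries. A gene above 3 counts in untreated parental but not in acute libraries need not differ in level between them.

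The genes with the smallest p among those lower in adapted cells were HSPA1B, PIM1, HSPA1A, DNAJB1, ALDOC and ANGPTL4. HSPA1B, HSPA1A, ALDOC and ANGPTL4 had risen with oxamate in parental cells, and all of the named genes were called lower in adapted than in untreated parental cells. PIM1, a short-lived serine/threonine kinase, had 261, 257 and 256 CPM in untreated parental cells, 348, 350.4 and 343 CPM in the acute and 95.9, 94.5 and 93.4 CPM in the adapted libraries. Its adapted minus acute log2 difference was -1.88 ± 0.02 (SE), and its acute rise, at 0.43 ± 0.02, was under the 1.5-fold threshold. RGS5, which shortens signalling by G proteins, and LOC101927770 joined HSPA1B and HSPA1A as the 4 genes with the largest fold toward acute cells where the higher group averaged 8 CPM or more. LOC101927770, which is uncharacterized, had 8.12, 8.19 and 9.46 CPM in the acute and 1.03, 0.857 and 1.75 CPM in the adapted libraries. RGS5 had 435, 441 and 406 CPM in the acute and 71.9, 70.7 and 68.8 CPM in the adapted libraries, a log2 difference of -2.6 ± 0.04. The groups did not overlap in any of these genes.

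In the main fit, about as many acute changes were opposite in adapted cells as were found there. Opposite changes outnumbered those found without both replicates 3, with DESeq2 and with library size alone. Of the 1440 genes called with oxamate, 355 were also called in the same direction in adapted cells without drug and 356 in the opposite direction. Of the 829 genes that rose with oxamate in parental cells (5.69% of those tested), 337 (40.7%) were also higher in adapted cells, where 17.2% of all tested genes were called higher. Of the 611 genes that fell with oxamate (4.19%), 18 (2.95%) were also lower in adapted cells, where 6.14% of all tested genes were called lower, and 288 (47.1%) were higher there. Both comparisons use the same 3 untreated parental libraries, so that these shares are counts and not tests. The shares differed by expression level. Under 8 CPM lay 651 of the 829 rises and 374 of the 611 falls. At that level the adapted comparison called 1908 of 4959 genes higher and 299 lower. The 17.2% and 6.14% over all tested genes are therefore not matched to the level of these genes. At 8 CPM or more, 44 of 178 acute rises (24.7%) were also found in adapted cells, beside 6.27% of all genes of that level called higher there, and 6 of 237 acute falls (2.53%), beside 6.2% called lower. Adapted cells stood within 1.5-fold of untreated parental cells, by the 95% interval of the difference, for 89 of the 178 rises (50%) and for 131 of the 237 falls (55.3%), while 62.6% of all tested genes of any level had such an interval. The opposite direction was called for 27 of the 178 (15.2%) and 71 of the 237 (30.0%). For 252 of the 829 and 116 of the 611 the interval allowed no decision.

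Without both replicates 3, 228 of 662 acute rises (34.4%) and 22 of 662 acute falls were also found, and 307 of the falls (46.4%) were opposite in adapted cells. At 8 CPM or more these counts were 27 of 143 rises (18.9%) and 5 of 251 falls (1.99%). Of the 355 genes found in both states with all libraries, 206 were found again without them, and of the 356 opposite genes 310 were opposite again. With library size alone 659 genes rose and 848 fell with oxamate, so that falls outnumbered rises, and 515 of the falls were opposite in adapted cells. At 8 CPM or more that scaling gave 129 rises, of which 47 were also found, 57 were within 1.5-fold and 12 were opposite, and 374 falls, of which 3 were also found, 142 were within 1.5-fold and 180 were opposite.

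**Figure D2:**
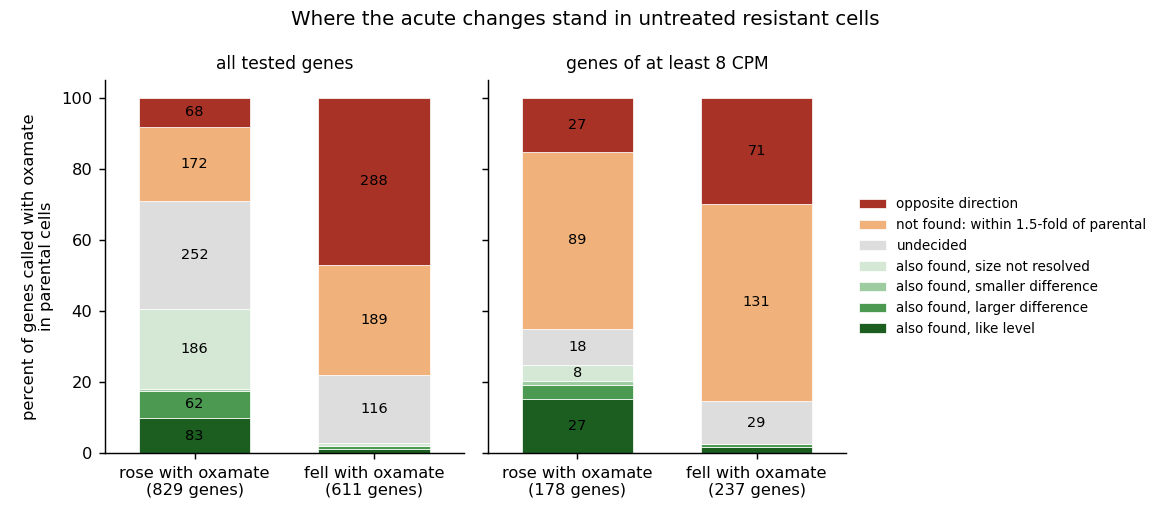
Bars divide the genes called with oxamate in parental cells, rising (left bar of each panel) or falling (right bar), by what was measured in untreated resistant cells against untreated parental cells, as a percent of genes (y) with the number of genes printed in the larger segments. Among genes of at least 8 CPM, 44 of 178 rises and 6 of 237 falls are in green, the classes also found in adapted cells, while the orange class within 1.5-fold of parental holds 89 and 131.

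Some genes changed the same way in both states and stood within 1.5-fold between them. Counted here were genes called in the same direction in both, with the 95% interval of the adapted minus acute difference inside 1.5-fold. This held for 83 of the genes that rose and 8 of those that fell. Such an interval alone, without the calls, was seen for 53.6% of all tested genes, so that this share is not a like measure. CA11, a carbonic anhydrase-related protein without enzyme activity, had 34.5, 35.1 and 32.5 CPM in untreated parental cells, 61.9, 56.8 and 61.2 CPM in the acute and 58.7, 60.3 and 56.9 CPM in the adapted libraries. The acute and adapted libraries overlapped, both above all parental ones, and the difference between the states was -0.03 ± 0.04 (SE). NCEH1, a hydrolase of cholesterol esters, fell from 102, 106 and 110 CPM to 63.8, 63.5 and 63.4 CPM with oxamate and stood at 63.2, 61.8 and 62.3 CPM in adapted cells. RCAN1, an inhibitor of calcineurin, had 331, 331 and 344 CPM in untreated parental, 213, 210.4 and 207 CPM in acute and 203, 208 and 197 CPM in adapted libraries. In both genes the acute and adapted libraries lay together, well below the parental ones. GBP2, an interferon-inducible GTPase, ABCA8, a membrane transporter, and ARFGEF3 were higher in both states, with acute log2 fold changes of 0.59 ± 0.03, 0.74 ± 0.04 and 0.99 ± 0.05 and adapted ones of 0.74 ± 0.03, 0.83 ± 0.04 and 1.36 ± 0.05 (SE). Their adapted libraries lay above all acute ones, by 0.15 ± 0.03, 0.09 ± 0.04 and 0.37 ± 0.05, which is within 1.5-fold. ZNF92 and FOXQ1, a zinc finger and a forkhead factor, were lower in both, with acute changes of -0.59 ± 0.05 and -0.76 ± 0.07 and adapted ones of -0.67 ± 0.05 and -0.96 ± 0.07.

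In other genes the acute change was present in adapted cells and larger there, which was called for 62 genes that rose and 5 that fell. CFB and C3 encode complement factors. CFB had 5.83, 5.18 and 5.63 CPM in untreated parental, 11.1, 11.5 and 11.2 CPM in acute and 18.4, 18.3 and 18 CPM in adapted libraries. C3 had 16.4, 16.2 and 15.7 CPM, 24.7, 24 and 24.5 CPM and 42.5, 43.2 and 46.2 CPM in the same order. The epithelial transcription factor ELF3 had 11.3, 11 and 11.6 CPM, 18.2, 17.5 and 18.7 CPM and 36.9, 39.5 and 40.6 CPM. In each of these genes the 3 groups followed one another without overlap, and the differences between acute and adapted cells were 0.69 ± 0.05, 0.85 ± 0.04 and 1.1 ± 0.04 (log2, SE). KLK5, another kallikrein, was lower in level and followed the same order, with a difference of 0.91 ± 0.08. Among the falls, ENC1, a kelch-family protein that binds actin, stepped down from 57.9, 55.8 and 58.6 CPM in untreated parental to 31, 29.5 and 30.1 CPM in acute and 17.2, 17.2 and 16.2 CPM in adapted libraries. IQCJ-SCHIP1, a readthrough gene whose reads cannot be told from those of SCHIP1, BMP3, a bone morphogenetic protein, and IFI44, an interferon-induced gene, showed adapted minus acute differences of -0.59 ± 0.09, -0.66 ± 0.14 and -1.98 ± 0.29. IFI44 was low throughout, with 0.751, 0.571 and 0.594 CPM in the acute and 0.122, 0.235 and 0.12 CPM in the adapted libraries.

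The acute rise was present but smaller in adapted cells for 6 genes, among them SH3D21, FER1L4, BIRC7 and BMS1P17. SH3D21 had 15.2, 15.6 and 27.8 CPM in the acute and 11.4, 10.4 and 13.8 CPM in the adapted libraries, and FER1L4, a pseudogene transcript, had 9.1, 9.4 and 18.9 CPM and 7.9, 6.55 and 10.3 CPM. In both genes replicate 3 of each group was the highest, as for the nuclear RNAs, and the groups overlapped for FER1L4. BIRC7, an inhibitor of apoptosis, and the pseudogene BMS1P17, whose reads may be shared with other copies, differed by -0.85 ± 0.25 and -1.04 ± 0.28. No acute fall was present but smaller in adapted cells.

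Among the acute rises for which adapted cells stood within 1.5-fold of parental cells, NDRG1, GPI, TLE2 and PGK1 had the smallest p for the acute change. NDRG1, a stress-responsive HIF target, had 227, 221 and 221 CPM in untreated parental, 415, 409 and 408 CPM in acute and 199.9, 198 and 196 CPM in adapted libraries. The acute libraries were the highest, with an acute change of 0.88 ± 0.02 on the log2 scale beside an adapted one of -0.17 ± 0.02. The glycolytic enzymes GPI and PGK1 rose by 0.86 ± 0.02 and 0.89 ± 0.03 with oxamate and differed by -0.44 ± 0.02 and -0.52 ± 0.03 in adapted cells, which is below untreated parental cells though within 1.5-fold. TLE2, a transcriptional corepressor, changed by 0.77 ± 0.02 and -0.11 ± 0.02. Among the acute falls of this kind, MARS, the methionyl-tRNA synthetase, had 106, 103 and 105 CPM in untreated parental, 67.3, 65.8 and 66 CPM in acute and 117, 115 and 115 CPM in adapted libraries. WDR43, a factor of ribosome biogenesis, CCDC71L and C6orf120 fell by acute log2 changes of -0.66 ± 0.02, -1.01 ± 0.04 and -0.93 ± 0.03 and differed by 0.2 ± 0.02, 0.3 ± 0.03 and 0.25 ± 0.03 in adapted cells. For all 4 falls the adapted libraries lay above the parental ones.

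Genes with opposite changes in the states included a myelin gene, a tumour suppressor and the main glucose transporter. MBP, the myelin basic protein gene, had 114, 116 and 119.6 CPM in untreated parental, 75.1, 75.3 and 73 CPM in acute and 177, 178 and 176 CPM in adapted libraries. PPP1R10, a regulatory partner of protein phosphatase 1 in the nucleus, had 7.68, 7.13 and 7.27 CPM, 1.86, 2.09 and 1.97 CPM and 23.6, 23.4 and 25.2 CPM in the same order. APC, the tumour suppressor that holds down beta-catenin, had 9.02, 9.47 and 10.1 CPM, 3.54, 3.56 and 3.93 CPM and 22.5, 22.7 and 22.4 CPM. In the 3 genes the acute libraries were the lowest and the adapted libraries the highest, with log2 differences between them of 1.25 ± 0.02, 3.61 ± 0.08 and 2.61 ± 0.06 (SE), and ZNF629, a zinc finger gene, showed the same order with 1.64 ± 0.03. The reverse order was seen for RHOB, a stress-induced small GTPase, with 305, 292 and 287 CPM in untreated parental, 493, 480 and 489.7 CPM in acute and 135, 140.2 and 137 CPM in adapted libraries. SLC2A1, the glucose transporter GLUT1, followed it with 173, 168 and 168 CPM, 263, 263 and 261 CPM and 100.3, 100.4 and 100.2 CPM. P4HA2, a collagen prolyl hydroxylase subunit, and ALDOC, an aldolase, belong with them, at adapted minus acute differences of -1.5 ± 0.03 and -2.35 ± 0.03.

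**Figure D3:**
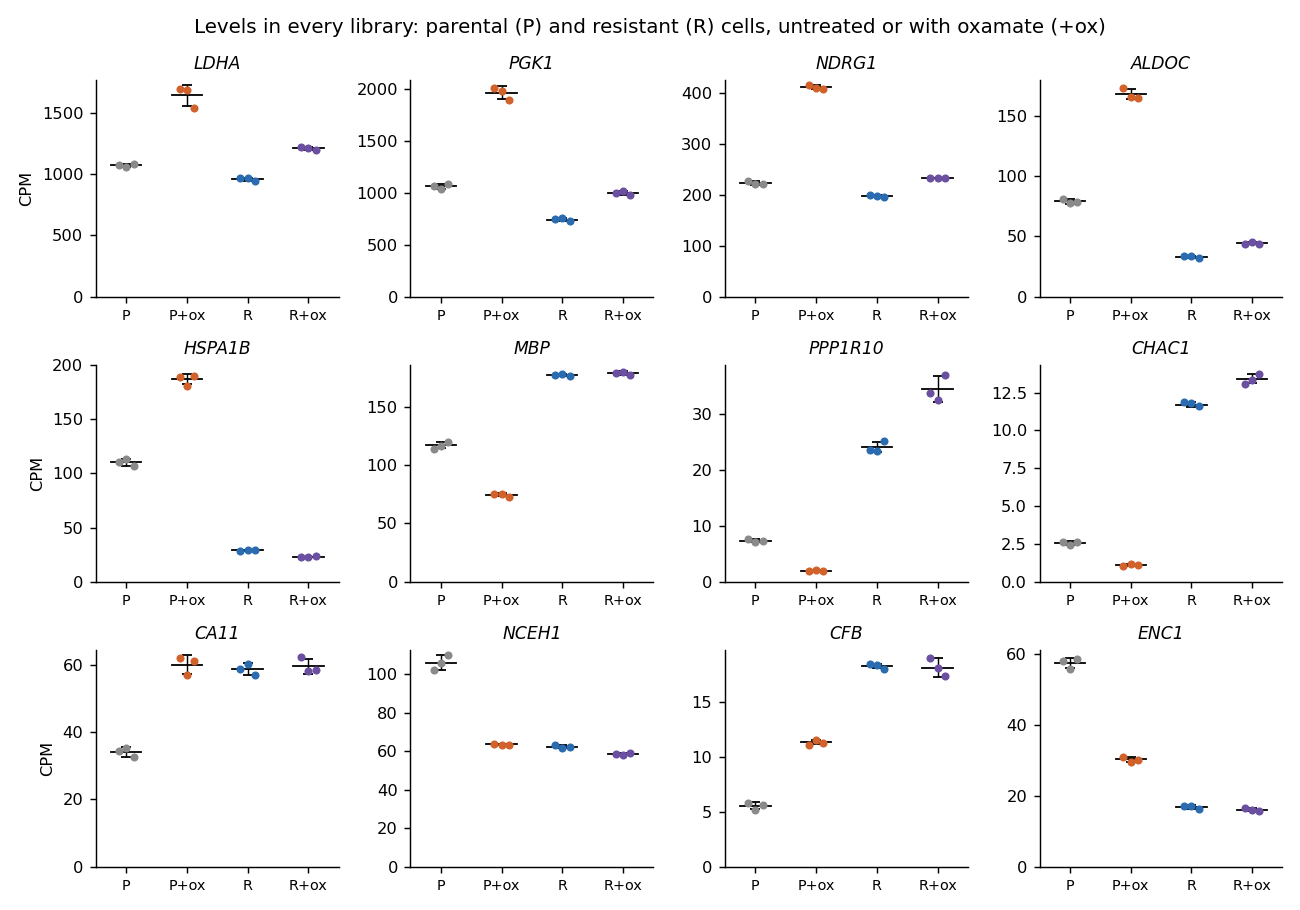
Points are the CPM (y, linear, from 0) of 12 genes in each library of untreated parental (P), oxamate-exposed parental (P+ox), untreated resistant (R) and oxamate-treated resistant (R+ox) cells, with the mean (line) and SD (bars, n = 3). LDHA, PGK1 and NDRG1 rise with oxamate and, with TMM factors, are below the parental level in R. For LDHA and NDRG1 that small difference in R depends on the scaling. ALDOC and HSPA1B also rise and are below the parental level in R by a wider margin. MBP, PPP1R10 and CHAC1 fall and are higher in R, and CA11, NCEH1, CFB and ENC1 change the same way in both states.

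Glucose uptake and glycolysis genes were nearly all lower in adapted than in acute cells. Of 24 tested members, 20 were lower in adapted than in acute cells and none was higher, with a median log2 difference of -1.06 beside 0.009 for all genes. With oxamate 11 of the 24 rose in parental cells (median 0.56), and without drug 7 of the 24 were lower in adapted than in parental cells (median -0.50). With library size alone the 3 counts were 15, 7 and 3, with 1 member higher in adapted than in parental cells. As a reference for this list and those below, 10.8% of all tested genes were lower and 19.9% higher than in acute cells. Against untreated parental cells these shares were 6.14% and 17.2%, and 5.69% rose and 4.19% fell with oxamate. ALDOC had 81, 77.4 and 78.8 CPM in untreated parental, 173, 166 and 165 CPM in acute and 33.3, 33.7 and 31.8 CPM in adapted libraries. HK2, a hexokinase, which starts glycolysis, had 389.7, 395 and 405 CPM in the acute and 157, 158 and 160.1 CPM in the adapted libraries. SLC16A1, which carries lactate across the membrane, had 382 ± 11 CPM (SD, n = 3) in the acute and 169 ± 1.16 CPM in the adapted group, and was not called with oxamate (acute log2 change 0.13 ± 0.03). The members that were not called in the direct comparison were PFKL, PFKFB4, MPC1 and PFKM, with differences between -0.56 and -0.21. No glycolysis gene that rose with oxamate was also higher in adapted cells: 8 were within 1.5-fold of parental cells, 2 were opposite and 1 was undecided.

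HIF targets outside glycolysis were mostly lower in adapted cells as well. Of 29 members, 22 were lower in adapted than in acute cells and 1, EGLN3, a hydroxylase that marks HIF for degradation, was higher, with a median of -1.05. Oxamate raised 19 of them and lowered EGLN3 in parental cells (median 0.69), and adapted cells without drug had 9 lower and 1 higher than parental cells (median -0.27, and -0.05 with library size alone, which gave 4 lower and 3 higher). ANGPTL4, a secreted inhibitor of lipoprotein lipase, had 189, 176 and 181 CPM in untreated parental, 299, 289 and 291 CPM in acute and 71.4, 74 and 72.1 CPM in adapted libraries. FAM162A, a mitochondrial protein, had 152, 148 and 141 CPM in the acute and 49.7, 49.9 and 47 CPM in the adapted libraries. ERO1A, the oxidase that recharges disulfide formation in the endoplasmic reticulum (ER), had 349.6, 354 and 349 CPM and 146, 145 and 143 CPM. In all 3 genes every adapted library lay below every acute one. CA9, a carbonic anhydrase often used as a marker of hypoxia, was low in both states, with 0.268, 0.457 and 0.159 CPM in the acute libraries and 0, 0.0168 and 0.0342 CPM in the adapted ones, none of which had more than 3 counts. VEGFA (log2 difference -0.31 ± 0.04), DDIT4 (-0.22 ± 0.03) and BHLHE40 (-0.18 ± 0.04) were not called. PLOD2, another collagen lysyl hydroxylase, was the 1 member called higher in both states, at 0.197, 0.247 and 0.232 CPM in the acute and 0.262, 0.37 and 0.377 CPM in the adapted libraries.

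The hypoxia response element has the core ACGTG. Among promoters of RefSeq on GRCh38.p14, taken as 250 bases before to 50 bases after each gene start and counted as present when any start of the gene holds it on either strand, 24.9% of 27305 genes had the core. It was found in 13 of 22 glycolysis members with a promoter in the table (59.1%) and in 18 of 24 HIF targets (75.0%). The glycolysis members had 2.23 listed starts per gene on average, against 1.29 in all genes and in the HIF targets. Stretches of 4 of these promoters are shown because their genes carry the contrast between the states, with the core or its reverse complement in capitals. The presence of these letters describes the window and was not tested for function.
ALDOC, chr17:28576896-28576963, minus strand, first capital 28 bases before the start: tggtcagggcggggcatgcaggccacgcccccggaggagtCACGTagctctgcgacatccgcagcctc
HK2, chr2:74834039-74834123, plus strand, first capital 48 bases before the start: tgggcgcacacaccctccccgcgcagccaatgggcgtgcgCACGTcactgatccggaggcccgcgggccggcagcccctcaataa
ANGPTL4, chr19:8363905-8363965, plus strand, first capital 234 bases before the start: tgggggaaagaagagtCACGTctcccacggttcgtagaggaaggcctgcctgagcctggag
ERO1A, chr14:52695628-52695712, minus strand, first capital 114 bases before the start: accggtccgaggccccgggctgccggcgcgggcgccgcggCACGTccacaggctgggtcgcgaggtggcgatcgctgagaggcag

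**Figure D4:**
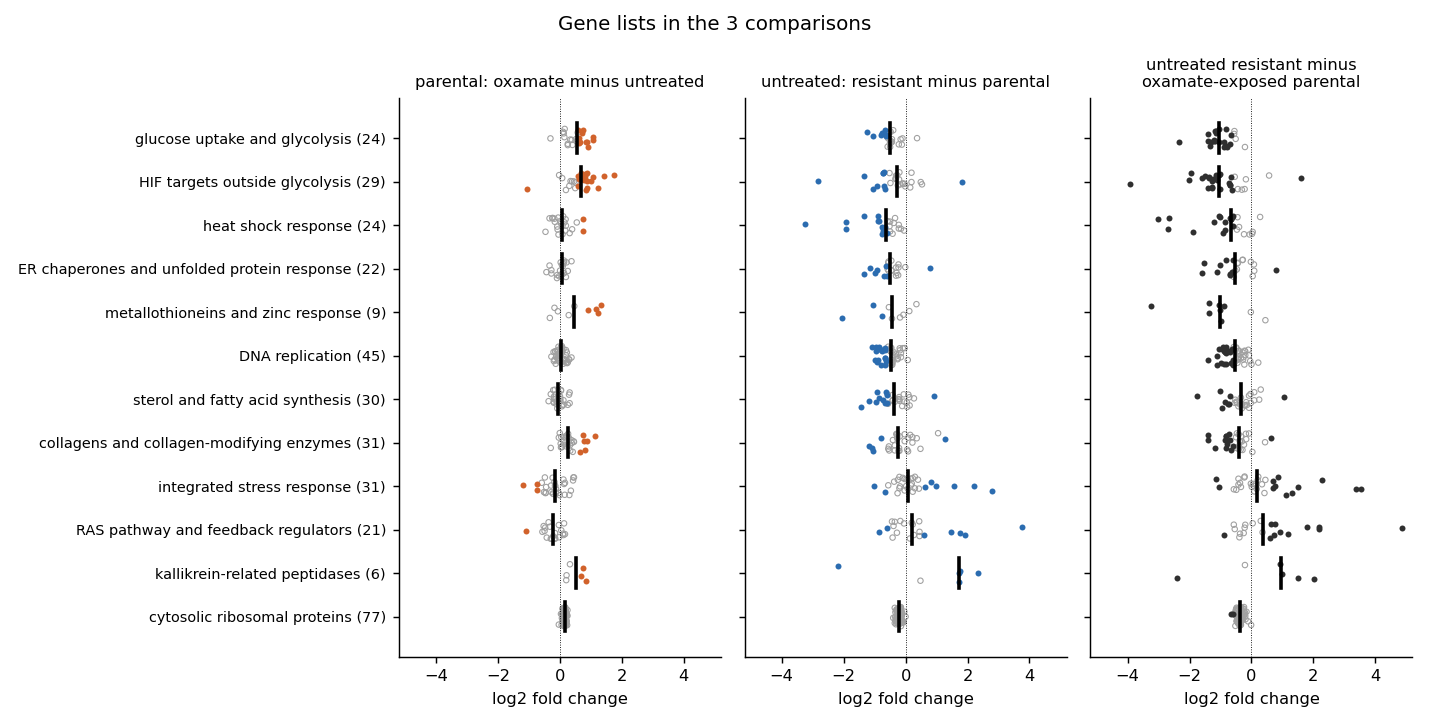
Rows are gene lists with the number of tested members, and points are members placed by log2 fold change (x) for oxamate in parental cells (left), untreated resistant against untreated parental cells (middle) and untreated resistant against oxamate-exposed parental cells (right), filled where called, open where not, with the list median as a bar. Glycolysis and HIF genes lie mostly right of 0 on the left and left of 0 on the right, whereas the medians of heat shock, ER and DNA replication genes lie near 0 on the left.

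Heat shock genes were lower in adapted cells than in either parental state. Of 24 members, 16 were lower in adapted than in acute cells (median -0.65) and none was higher, 13 were lower in adapted than in untreated parental cells (median -0.64), and 2 rose with oxamate. With library size alone 8 were lower than in acute cells and 7 lower than in parental cells. HSPA1A and HSPA1B, the inducible HSP70 genes, accounted for the 2 rises. HSPA1B had 111, 113 and 107 CPM in untreated parental, 189, 181 and 189.7 CPM in acute and 28.4, 29 and 29.6 CPM in adapted libraries. HSPA1A had 404, 382 and 374 CPM, 635, 634 and 674 CPM and 103, 103 and 101 CPM in the same order, and because the 2 genes are near-identical copies the split of reads between them is uncertain. Their cochaperone DNAJB1 had 1141, 1130.5 and 1107 CPM in the acute and 302, 304 and 301 CPM in the adapted libraries. The constitutive chaperones HSPA8 and HSP90AA1 were lower in adapted cells by smaller amounts, with log2 differences from the acute state of -0.87 ± 0.03 and -0.85 ± 0.03, while the factors HSF1 (-0.24 ± 0.02) and HSF2 (-0.06 ± 0.05) were not called.

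A heat shock element, searched as GAANNTTC or TTCNNGAA, was present in the promoters of 14 of 22 heat shock members (63.6%) and of 16.2% of all genes. These members had 1.59 listed starts per gene on average, against 1.29 in all genes. The windows of the HSP70 pair are shown with the element in capitals.
HSPA1B, chr6:31827593-31827680, plus strand, first capital 105 bases before the start: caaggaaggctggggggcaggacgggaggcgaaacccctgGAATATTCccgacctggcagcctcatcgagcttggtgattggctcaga
HSPA1A, chr6:31815397-31815484, plus strand, first capital 106 bases before the start: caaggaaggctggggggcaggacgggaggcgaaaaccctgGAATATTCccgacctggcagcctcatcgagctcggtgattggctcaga

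ER chaperones were also lower in adapted cells. Of 22 members of the unfolded protein response, 9 were lower and 1 was higher in adapted than in acute cells (median -0.55; 4 and 1 with library size alone), 7 were lower and 1 higher than in untreated parental cells (4 and 1 with that scaling), and none was called with oxamate. HSPA5, the main HSP70 of the ER, had 1814, 1797 and 1797 CPM in the acute and 822, 816 and 848 CPM in the adapted libraries. DNAJB9, its cochaperone, had 63.9, 66.5 and 63.2 CPM and 22.1, 22.5 and 21.8 CPM. SDF2L1 and the calcium-binding chaperone CALR differed by -1.6 ± 0.06 and -0.83 ± 0.02. EDEM1, which marks misfolded glycoproteins for degradation, was the member that was higher in adapted cells (0.78 ± 0.04).

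Genes of the integrated stress response were more often higher than lower in adapted cells, as were all tested genes. Of all tested genes, 19.9% were higher and 10.8% lower than in acute cells, and 17.2% and 6.14% than in untreated parental cells. The share of the list called was 38.7% against acute cells, beside 30.7% of all tested genes. Against untreated parental cells it was 25.8%, near the 23.4% of all tested genes. Of 31 members, 10 were higher and 2 lower in adapted than in acute cells (median 0.17), 6 were higher and 2 lower than in untreated parental cells (8 and 1 with library size alone), and 3 fell with oxamate. SLC7A11, the cystine importer, had 1.89, 2.07 and 2.12 CPM in untreated parental, 1.11, 1.01 and 1.42 CPM in acute and 13.3, 13.6 and 14.8 CPM in adapted libraries. CHAC1, which breaks down glutathione, had 2.62, 2.41 and 2.64 CPM, 1.05, 1.18 and 1.13 CPM and 11.9, 11.8 and 11.6 CPM. SLC7A5, the leucine transporter, had 232, 232 and 221 CPM, 166, 165 and 166 CPM and 409, 415 and 398 CPM, and the pseudokinase TRIB3 had 30.7, 28.3 and 28.8 CPM, 21.4, 20.5 and 20 CPM and 57.9, 58.4 and 57.1 CPM. In all 4 genes the acute libraries were the lowest of the 3 groups and the adapted libraries the highest. ATF4 itself and the asparagine synthetase ASNS were higher in adapted than in acute cells by 0.68 ± 0.03 and 0.75 ± 0.03. The members that were lower were DDIT3, the factor CHOP (-1.16 ± 0.05), and PPP1R15A, which directs the removal of the stress mark from eIF2 (-1.04 ± 0.03). Among 20 cytosolic aminoacyl-tRNA synthetases 3 were higher and 1 was lower in adapted than in acute cells (5 and none with library size alone). The share of this list called was under the 30.7% of all tested genes. Its shares higher and lower were also under the 19.9% and 10.8% of all tested genes. CARS differed by 0.99 ± 0.02, MARS by 0.8 ± 0.02 and AARS by 0.75 ± 0.02, against DARS at -0.69 ± 0.03.

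The C/EBP-ATF element, searched as TGATGNAAN, was found in the promoters of 7 of 25 members of the integrated stress response list (28.0%) and of 4.45% of all genes. Members of this list had 1.56 listed starts per gene on average, against 1.29 in all genes. The windows of CHAC1 and CEBPG, both higher in adapted than in acute cells, hold it in capitals, in CHAC1 as the reverse complement.
CHAC1, chr15:40953221-40953309, plus strand, first capital 210 bases before the start: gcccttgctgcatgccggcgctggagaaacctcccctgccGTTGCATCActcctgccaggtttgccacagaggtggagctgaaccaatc
CEBPG, chr19:33374031-33374112, plus strand, first capital 42 bases before the start: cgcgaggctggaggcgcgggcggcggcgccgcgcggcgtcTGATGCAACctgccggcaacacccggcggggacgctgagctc

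Metallothioneins, small proteins that bind zinc and copper, were higher in the acute than in the adapted state. Of 9 members of the zinc list, 7 were lower in adapted than in acute cells (median -1.01) and none was higher, 4 rose with oxamate, and 3 were lower in adapted than in untreated parental cells. MT1E had 467, 440.5 and 397 CPM in untreated parental, 993, 966 and 1009 CPM in acute and 393, 394 and 368 CPM in adapted libraries. MT1X had 157, 148 and 127 CPM, 273, 265 and 281 CPM and 109.7, 107 and 103 CPM. In both genes the acute libraries lay above the parental ones and the adapted libraries below them. For MT1E the adapted difference from parental cells was small (-0.18 ± 0.04). It was under the shift of 0.22 in the median of that comparison with library size alone. Members of this family are close copies, and reads may be divided between them. SLC30A1, a zinc exporter, was lower in adapted than in acute cells (log2 difference -1.06 ± 0.04). The metal response element TGCGCNC was in 2 of 5 promoters with an entry (40%) and in 23.0% of all genes. With library size alone 7 members were lower and 1 was higher in adapted than in acute cells.

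Several negative regulators of RAS signalling were higher in adapted than in acute cells. Of 21 members of the RAS list, 10 were higher and 1 was lower in adapted than in acute cells (median 0.36; 12 and 1 with library size alone), 5 were higher and 2 lower than in untreated parental cells (8 and 1 with that scaling), and 1 fell with oxamate (3 with that scaling). Its share called was 52.4% against acute and 33.3% against untreated parental cells, beside 30.7% and 23.4% of all tested genes. Of all tested genes, 19.9% were higher than in acute and 17.2% than in untreated parental cells. With oxamate 4.76% of the list was called, under the 9.88% of all tested genes and near the 4.19% that fell. DUSP6, a phosphatase that inactivates ERK, had 1.67, 1.33 and 1.85 CPM in untreated parental, 0.679, 0.819 and 0.753 CPM in acute and 21.6, 20.8 and 22.9 CPM in adapted libraries. Its acute libraries were the lowest and its adapted libraries the highest, a log2 difference of 4.85 ± 0.13 (SE). RASAL2, like RASA1 an activator of the GTPase of RAS, had 6.53, 5.96 and 6.53 CPM in the acute and 28.8, 28.3 and 28.8 CPM in the adapted libraries. SPRY1, SPRY2, SPRED1 and SPRED2, feedback inhibitors of the pathway, differed by 0.63 ± 0.03, 0.75 ± 0.02, 1.17 ± 0.05 and 0.74 ± 0.04. The NRAS and HRAS transcripts were not called, at -0.37 ± 0.03 and -0.39 ± 0.04, and DUSP7 was the member that was lower (-0.9 ± 0.02). Immediate early and other short-lived transcripts split, with 6 of 30 higher and 12 lower in adapted than in acute cells. With library size alone 9 were higher and 5 lower, and the 6 higher are near the 19.9% of all tested genes. BTG1, an antiproliferative factor, had 38, 37.9 and 34.8 CPM in the acute and 133, 139 and 146 CPM in the adapted libraries, whereas PIM2, a kinase related to PIM1, had 165, 162 and 160 CPM and 73.7, 77.1 and 75 CPM.

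Kallikreins, secreted serine proteases, included members that were higher in both states. Of 6 tested members, 4 were higher and 1 was lower in adapted than in acute cells, 3 rose with oxamate, and 4 were higher and 1 lower in adapted than in untreated parental cells. KLK5 had 1.9, 1.81 and 1.78 CPM in untreated parental, 3.45, 3.22 and 3.29 CPM in acute and 6.0, 6.68 and 6.08 CPM in adapted libraries. KLK7 rose by 0.76 ± 0.09 (log2, SE) with oxamate and was higher by 1.74 ± 0.09 in adapted cells. KLK6 and KLK10, at 0.33 ± 0.04 and 0.21 ± 0.14, were not called with oxamate and differed by 2.34 ± 0.03 and 1.72 ± 0.13 in adapted cells. KLK13 was the member that was lower, at 0.25, 0.247 and 0.246 CPM in the acute and 0.0873, 0.0336 and 0.0171 CPM in the adapted libraries.

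Genes of the extracellular matrix and its receptors differed by kind. Of 31 collagens and collagen-modifying enzymes, 12 were lower and 1 was higher in adapted than in acute cells (median -0.41; 3 and 1 with library size alone), and 6 rose with oxamate. The share called was 41.9% between the states and 19.4% with oxamate, beside 30.7% and 9.88% of all tested genes. PLOD1, a collagen lysyl hydroxylase, had 834, 801 and 801 CPM in untreated parental, 1425, 1408 and 1365 CPM in acute and 619, 621 and 596 CPM in adapted libraries, so that the acute rise was not found in adapted cells. P4HB, a subunit of prolyl hydroxylase that is also a disulfide isomerase, and COL3A1 differed between the states by -0.8 ± 0.02 and -1.39 ± 0.04. COL7A1, the anchoring fibril collagen, was the member that was higher (0.62 ± 0.18). Of 18 integrins and laminins, 4 were higher and 2 lower in adapted than in acute cells (median -0.04, and 0.25 with library size alone). This is 33.3% of the list, near the 30.7% of all tested genes, of which 19.9% were higher and 10.8% lower. ITGA1, the alpha subunit of a collagen receptor, had 0.0179, 0.019 and 0.029 CPM in the acute libraries, none above the floor, and 7.84, 7.73 and 7.14 CPM in the adapted libraries, at least 147-fold higher against the mean floor. LAMB3, a laminin of the epithelial basement membrane, had 2.68, 2.38 and 2.67 CPM and 11, 11.4 and 10.9 CPM. ITGA5, the fibronectin receptor subunit, was lower in adapted cells (-0.7 ± 0.03), and FN1, fibronectin itself, was higher, with 0.429, 0.40 and 0.507 CPM in the acute and 18.3, 18.3 and 21.1 CPM in the adapted libraries.

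DNA replication genes were lower in adapted cells. Of 45 members, 21 were lower and none was higher in adapted than in acute cells (median -0.53; 9 with library size alone), 17 were lower in adapted than in untreated parental cells (7 with that scaling), and none was called with oxamate. The lower members were 46.7% and 37.8% of the list, beside 10.8% and 6.14% of all tested genes called lower in these 2 comparisons. RRM2, a subunit of ribonucleotide reductase, had 309.8, 310.2 and 313 CPM in untreated parental, 394, 392 and 374 CPM in acute and 146, 146 and 146 CPM in adapted libraries. MCM4, part of the replicative helicase, had 197, 199 and 199 CPM in the acute and 93.6, 90.6 and 90 CPM in the adapted libraries, and MCM7 had 391, 384 and 381 CPM and 208, 208 and 206 CPM. In each of the 3 genes the adapted libraries lay below all untreated and acute parental libraries. PCNA, the sliding clamp, was not called between the states (-0.4 ± 0.04). Of 28 mitosis genes, 4 were lower and 1, CENPE, was higher than in acute cells (median -0.25, and 0.05 with library size alone, when none was lower), which is near the 10.8% of all tested genes called lower. Against untreated parental cells 9 were lower and 1 higher (median -0.45; 2 and 1 with library size alone). AURKB (-0.83 ± 0.02) and UBE2C (-0.7 ± 0.03) were among those lower, while KIF2C (-0.58 ± 0.02) was not called.

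Some genes of sterol synthesis were lower in adapted cells too. Of 30 members, 7 were lower and 1 was higher in adapted than in acute cells (median -0.33; 3 and 2 with library size alone), 10 were lower and 1 higher in adapted than in untreated parental cells (5 and 1 with that scaling), and none was called with oxamate. The share of the list called was 26.7% against acute cells, under the 30.7% of all tested genes, of which 10.8% were lower. Against untreated parental cells it was 36.7%, beside 23.4% of all tested genes. INSIG1, which restrains sterol synthesis and is itself a sterol-regulated gene, had 160.5, 165 and 171 CPM in untreated parental, 202, 212 and 198 CPM in acute and 61.6, 60.1 and 60 CPM in adapted libraries. MSMO1, a sterol oxidase of cholesterol synthesis, had 49.6, 48.8 and 44.3 CPM in the acute and 22.2, 24.8 and 23.3 CPM in the adapted libraries. In both genes the adapted libraries lay below all acute ones, and ELOVL6, a fatty acid elongase, was the member that was higher (1.04 ± 0.11).

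Epithelial and mesenchymal genes differed in both directions. Of 12 epithelial genes, 4 were higher and 5 lower in adapted than in acute cells (4 and 2 with library size alone). That is 75.0% of the list, beside 30.7% of all tested genes, of which 19.9% were higher and 10.8% lower. KRT8 had 1601, 1545 and 1508 CPM in the acute and 671, 675 and 683 CPM in the adapted libraries, KRT19 differed by -1.09 ± 0.03 and KRT18 by -0.78 ± 0.03, and ELF3, as given above, was higher. Of 7 mesenchymal genes, 2 were higher and 2 lower (57.1% called; median -0.21, and 0.09 with library size alone). With 12 and 7 members, the shares of these 2 lists rest on few genes. SNAI1, a repressor of epithelial genes, had 36.7, 36.1 and 35.9 CPM in the acute and 10.5, 10.4 and 9.84 CPM in the adapted libraries, TGFBI, a matrix protein induced by TGF-beta, was higher by 0.97 ± 0.03, and VIM, vimentin, was lower (-0.66 ± 0.02).

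Interferon and antigen presentation genes were also mixed. Of 28 members, 4 were higher and 9 lower in adapted than in acute cells (6 and 5 with library size alone), and 1 rose and 2 fell with oxamate. Between the states 46.4% of the list was called, while all tested genes had 30.7% called, 19.9% higher and 10.8% lower. With oxamate 10.7% of the list was called, near the 9.88% of all tested genes. ISG15, a ubiquitin-like modifier, had 56.6, 52.1 and 56.2 CPM in the acute and 22.9, 25 and 23 CPM in the adapted libraries. IFITM1 and IFITM2, membrane proteins that block viral entry, differed by -1.07 ± 0.03 and -0.86 ± 0.03. The factor IRF1 (0.72 ± 0.04) and the immunoproteasome subunit PSMB8 (0.71 ± 0.05) were higher in adapted cells.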

How the data were processed

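RNA was sequenced from 12 MIAPaCa2 samples, 3 in each of 4 groups. Per the labels, the authors aligned reads to hg38 with Bowtie2 2.1.0 and deposited RSEM 1.2.15 expected counts per gene symbol, of which 11.6% were not whole and were rounded. A further pipeline that the methods describe was not used here. RSEM divides reads between near-identical genes, so their split is uncertain.

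All 12 libraries entered 1 edgeR 4.0.16 quasi-likelihood fit (R 4.3.3) with TMM factors after filterByExpr, and contrasts were taken between groups. A gene was called at an unadjusted p under 0.05 and a fold over 1.5, and Benjamini-Hochberg counts are given beside. Totals ran from 46698729 to 114222169 per library, and the floor of 3 counts covers counting error only. Replicate pairs differed by more than sampling noise.

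An acute change counted as found when the adapted contrast was called in the same direction, as opposite when called the other way, and as within 1.5-fold when its 95% interval lay inside that range. Named genes had adjusted p under 0.05. They were the 6 with the smallest p and the 4 with the largest fold per direction, for the acute classes the 4 per direction with the smallest acute p, and in each list the 3 with the smallest p and those over 3-fold at 8 CPM or more. In the lists the p need not pass. Some genes that the rule names are not reported here. Other list members in the text were picked once their values were known. The members and lists were chosen with earlier results of these data known. Alternatives were RLE, upper quartile and library size scaling, other filters, unrounded counts, DESeq2 1.42.0, limma-voom (limma 3.58.1), a replicate block, a fit to the samples compared, a test against the fold of 1.5, and leaving out replicates. On simulated data 189 of 200 genes changed in the untreated resistant group were recovered, with 9 false calls among 14378 genes. These were scored at adjusted p under 0.05 without a fold threshold, which is not the calling rule used here. A deviating replicate was not simulated.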

Additional observations from a re-analysis of the deposited data

How the results depend on the processing

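The 3 replicates per group, an unstated culture origin and exposure, and a scaling that assumes most genes alike limit these values, and at low counts many acute genes could not be placed. Under library size alone 4604 genes were higher and 630 lower in adapted than in acute cells, and 515 acute falls were opposite. Under a test against a fold of 1.5, 1025 genes were lower, 376 acute and 1999 adapted genes were called, 28 acute genes were also found in adapted cells, 25 of them rises, and 94 acute falls were opposite. The cause of these moves was not tested beyond the construction of the stricter test. The remaining alternatives kept these counts within 1.5 times of the reported ones. No sign reversed in the changes followed for named genes, which were adapted minus acute or, for genes also found, adapted against parental cells. Other small adapted differences were not followed. Library size alone moved the median of the adapted comparison up by 0.22. That is more than the size of the differences of LDHA (-0.16), NDRG1 (-0.17) and TLE2 (-0.11), whose direction depends on the scaling. Under library size alone the balance of higher and lower calls turned for the acute comparison and for immediate early, interferon and epithelial genes, and counts of members lower than in acute cells moved by more than 1.5 times for several further lists, as given beside them. Among named genes, 11 did not pass the test against a fold of 1.5 (among them ZNF92, SH3D21, BIRC7, BMS1P17, MLX, KIF2C, SDHA, SDHB, RPL28 and RPL36), and the adapted difference of BMS1P17 also missed the threshold under DESeq2 and without replicate 3 of the adapted group.

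Leaving out 1 replicate at a time gave 4392 to 4639 genes between the states, 2841 to 3060 higher and 1546 to 1601 lower, 1306 to 1511 acute and 3242 to 3507 adapted genes. Of the acute genes, 258 to 408 were also found in adapted cells, the fewest without acute replicate 3. The rises numbered 238 to 391 and the falls 14 to 20 among them, and 63 to 73 rises and 273 to 307 falls were opposite.

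The main fit treated the libraries as unpaired. Deviations of same-numbered acute and adapted libraries correlated at 0.0214, 0.126 and 0.245 for replicates 1, 2 and 3. These low values cannot decide whether same-numbered libraries share a feature, because both replicates 3 stood high in MALAT1. With the replicate number as a block, the adapted minus acute contrast called 4500 genes and 350 acute genes were also found.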

Other observations

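A further 4 lists were compared between oxamate-exposed parental and untreated resistant cells. NRF2 targets, which carry the response to oxidants, had 3 of 23 members lower (13.0%, near the 10.8% of all tested genes) and none higher in adapted cells, namely AKR1C1 (-1.13 ± 0.03 on the log2 scale, SE), OSGIN1 (-1.0 ± 0.03) and the ferritin light chain FTL (-0.65 ± 0.03). Their median was -0.22, and 0.08 with library size alone, which gave 2 lower and 2 higher. MondoA, a factor that senses glucose phosphates, has TXNIP and ARRDC3 as classical targets, and these related arrestin-family genes differed in opposite directions. TXNIP had 1359, 1373 and 1428 CPM in untreated parental, 1705, 1722 and 1643 CPM in acute and 790.3, 775 and 786 CPM in adapted libraries, whereas ARRDC3 had 30.5, 32.4 and 33.9 CPM, 19.2, 19.9 and 19.3 CPM and 55.7, 56 and 60.7 CPM. MLX, the partner of MondoA, was not called (-0.4 ± 0.03). Of 76 nuclear-encoded subunits of the respiratory chain 7 were lower in adapted cells (9.21%, no more than the 10.8% of all tested genes; median -0.42; none with library size alone, and 4 without replicate 3 of the adapted group), among them SDHA (-0.59 ± 0.03) and ATP5G1 (-0.68 ± 0.03), and SDHB was not called (-0.43 ± 0.02). Of 77 cytosolic ribosomal proteins 2 were lower (2.6%, under that share; median -0.38; none with library size alone), among them RPS28 at -0.65 ± 0.04, while RPL28 (-0.5 ± 0.03) and RPL36 (-0.55 ± 0.03) were not called.

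Some genes of at least 8 CPM that were called higher in both states were picked after their values had been seen, and most of these followed the replicate 3 libraries. OGT, which attaches N-acetylglucosamine to proteins, had 49.3, 56.2 and 54.2 CPM in untreated parental, 66.1, 67.5 and 122 CPM in acute and 78.4, 76 and 116 CPM in adapted libraries, with replicate 3 the highest of the acute and of the adapted group. Its changes of 0.69 ± 0.19 with oxamate and 0.76 ± 0.19 in adapted cells (log2, SE) became 0.33 ± 0.06 and 0.54 ± 0.05 without both replicates 3, under the 1.5-fold threshold. MAT2A, the enzyme that makes S-adenosylmethionine, had 94.4, 96.9 and 231 CPM in the acute and 125, 115 and 167 CPM in the adapted libraries, and its changes went from 0.76 ± 0.25 and 0.70 ± 0.25 to 0.20 ± 0.06 and 0.52 ± 0.05. CCNL2, a cyclin of splicing speckles, went from 0.59 ± 0.22 and 0.66 ± 0.22 to 0.21 ± 0.08 and 0.35 ± 0.08. CD74, the invariant chain of antigen presentation, did not follow those libraries, with 3.31, 3.12 and 3.25 CPM in the acute and 17.7, 17.4 and 16.6 CPM in the adapted libraries. It rose by 0.73 ± 0.08 with oxamate and was higher by 3.15 ± 0.07 in adapted cells, and by 0.73 ± 0.09 and 3.18 ± 0.07 without both replicates 3.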
